A study of Macaca mulatta with 20 samples.

Results

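The interleukins and their receptors were followed through the life of the rhesus macaque corpus luteum, the progesterone-secreting gland that an ovulated follicle turns into. The members are all genes whose symbol in the array's annotation is IL directly followed by a digit. Only probe sets, the groups of oligonucleotides that read 1 transcript, with a single symbol were used, and where a gene had several, the brightest on average was taken. This gave 72 genes of the 14132 with a symbol of their own: 36 ligands, 33 receptors or receptor-like chains, 2 antagonists and 1 enzyme that carries an interleukin symbol. The symbol of all 72 matched the current RefSeq name of the same gene identifier. IL1R1, IL7R, IL11, IL18BP and IL18R1 were looked for and are not among them, and the annotation writes IL8 as CXCL8, which lies outside the rule.

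RNA came from 20 samples of corpus luteum from female macaques with normal menstrual cycles, 1 array per sample and 4 per stage, and the stages are days after the midcycle surge of luteinizing hormone. They are early (days 3 to 5, luteal tissue forming), mid (days 7 to 8, peak progesterone), mid-late (days 10 to 12, still secreting), late (days 14 to 16, secretion ending) and very-late (days 18 to 19, at menses, tissue breaking down). The design text takes the early stage as the baseline. Values are log2 expression, so a difference of 1 is a 2-fold change. For arrays, their number limits the precision.

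Interleukins are secreted proteins through which leukocytes, and many other cells, signal to each other. Most bind receptors built from a private chain and a chain shared by several cytokines, and pass the signal through JAK kinases and STAT factors; the IL-1 and IL-17 families instead use adaptors that lead to NF-kB. In the corpus luteum, cytokines are studied both for the blood vessel growth and tissue formation after ovulation and for the leukocytes, chiefly macrophages, that gather in the regressing gland. Whole glands were measured, so fewer cells of a type and less RNA per cell cannot be told apart.

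A few arrays stood apart. The excess of 3' over 5' GAPDH signal was 2.76 log2 units in very-late replicate 1 and 0.906 to 1.87 on the other 19 arrays. Very-late replicate 2 correlated least with the rest of its stage, at r = 0.973, where the other 19 lay at 0.986 to 0.996. On the mean of 6 mitochondrial probe sets, 7 arrays read 7.02 to 8.93, namely very-late replicate 2, mid-late replicate 1, early replicate 4 and all of mid, while 13 read 11.5 to 12.4. Markers of luteal cells fell at the very-late stage while macrophage markers rose, as given beside the results below.

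Most of the ligands were near background. Background was set at 4.30, the 95th percentile of the means of 674 probe sets for viral genomes. A stage mean above it was reached by 34 of the 72 members, namely 22 of the 33 receptors, 10 of the 36 ligands, 1 of the 2 antagonists and the enzyme. IL1B and IL4I1 reached it at the very-late stage alone. The 26 ligands under it include IL6 (3.29 to 3.65 over the 20 arrays), the fever and acute-phase cytokine, and IL1A (3.26 to 4.37), the cell-bound form of IL-1. They also include IL4, IL7, IL12A, IL13, IL17A and IL22, products of T cells, stromal cells or antigen-presenting cells. A probe set under this level gives only a bound, and says nothing of a protein that may arrive from blood or act at low levels. The map of the 34 members above background is sorted by the very-late minus late difference. Its order therefore puts genes high on the very-late arrays at one end and genes low there at the other.

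**Figure D1:**
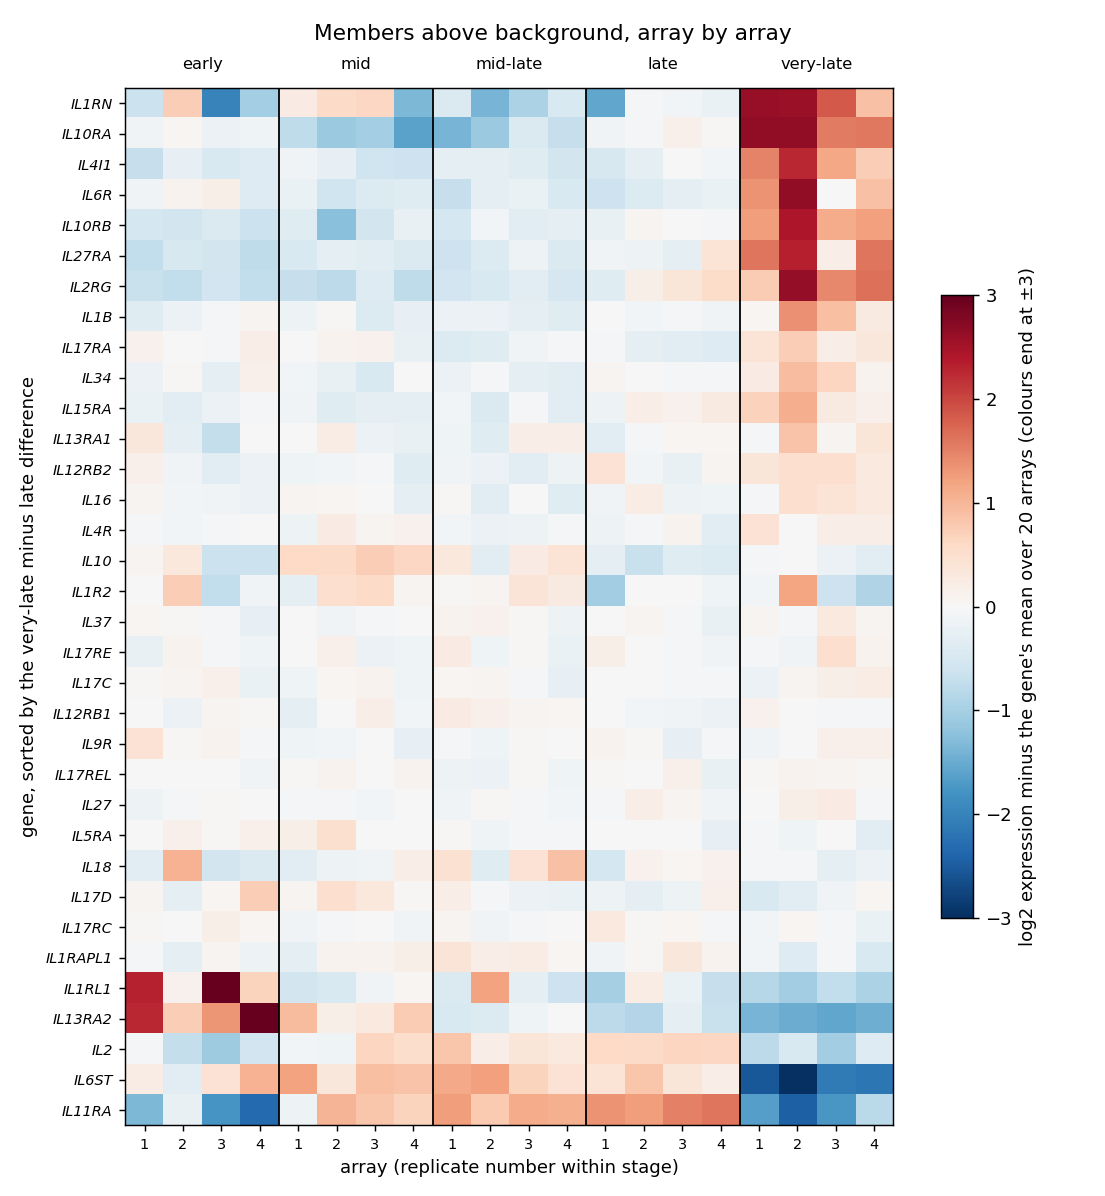
Log2 expression of the 34 members above background on each of the 20 arrays, minus the gene's own mean over the arrays, with arrays in columns grouped by stage and genes sorted by the very-late minus late difference. Red is above and blue below the gene's mean; IL1RN, IL10RA, IL4I1, IL6R, IL10RB, IL27RA and IL2RG are red at the very-late stage, IL6ST and IL11RA are blue there, and IL1RL1 and IL13RA2 are red at the early stage.

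Across the 5 stages, 19 of the 72 members differed in limma's test, where 21.5% of all 52707 probe sets did, so the share of members (26.4%) was close to that of the array. The highest stage mean was the very-late one in 12 of the 19, the early one in 2 (IL13RA2 and IL1RL1), the mid one in 2 (IL10 and IL5), the mid-late one in 1 (IL6ST) and the late one in 2 (IL11RA and IL2). On the probe sets used, the 14 members above background that passed no test moved by at most 0.506 between stage means.

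Against the early stage, calls were few until the tissue broke down. At the mid stage 1 member passed, where 0.362% of probe sets did. At mid-late 3 passed (3.73% of probe sets), 2 higher and 1 lower (1.62% and 2.1%). At late 5 passed (7.58% of probe sets), 3 higher and 2 lower (3.61% and 3.97%). At the very-late stage 17 passed (18.7% of probe sets), 14 higher and 3 lower (9.45% and 9.21%). In the comparison of the very-late with the late stage, which asks what changes between the end of secretion and the breakdown of the tissue, 15 members passed (13.8% of probe sets): 11 higher and 4 lower, where 6.75% of probe sets were higher and 7.03% lower. The 4 very-late arrays did not overlap with the 4 late arrays in 16 members, beside 15.2% of probe sets. The median difference was 0.06 over the 72 members and 0.02 over all probe sets. All comparisons with the early stage use the same 4 early arrays, and those of the very-late stage the same 4 very-late arrays.

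**Figure D2:**
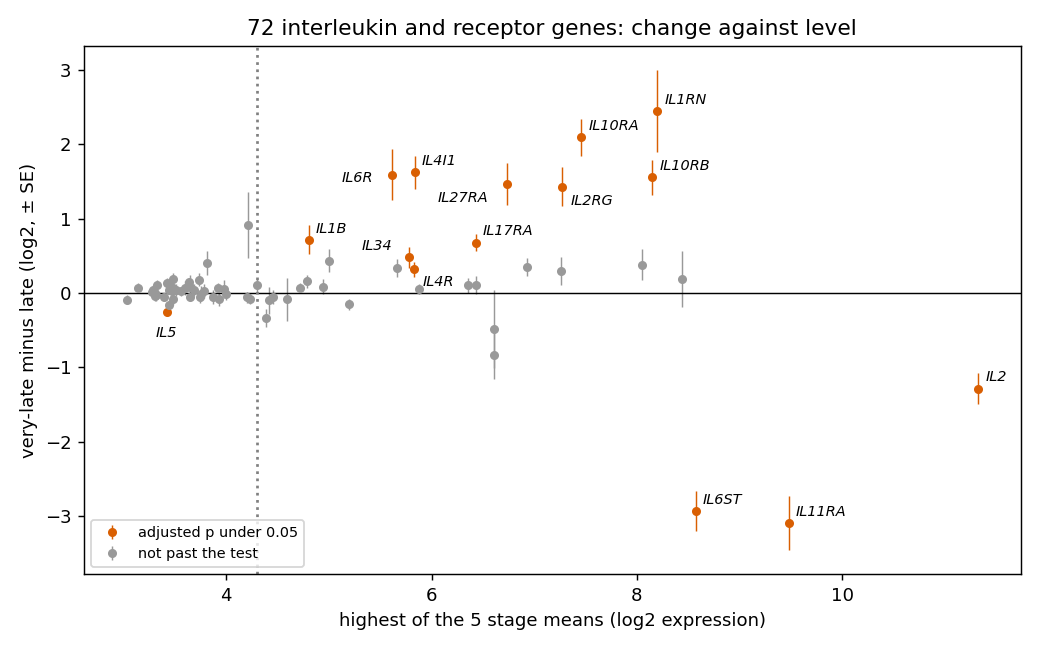
The very-late minus late difference (log2, ± SE of the limma fit, n = 4 arrays per stage) of each of the 72 members against the highest of its 5 stage means, with the background of 4.30 as a dotted line. Orange marks the 15 members past the test; most grey points lie left of or near the line, with differences near 0.

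The 2 chains of the IL-10 receptor both rose at the very-late stage. IL10RA is the chain that binds IL-10, a cytokine that restrains macrophages, and is made mainly by leukocytes; IL10RB is the signalling chain it shares with IL-22, IL-26 and the lambda interferons. IL10RA read 8.00, 8.00, 6.90 and 6.93 in the very-late glands, against 5.25, 5.32, 5.50 and 5.40 in the late glands. No very-late array overlapped with any array of an earlier stage. The difference was 2.09 ± 0.25 (SE, n = 4 per stage; 4.27-fold, adjusted p = 1.22e-05), and against the early stage it was 2.20 ± 0.25 (adjusted p = 4.33e-06). The mid mean, 4.22 ± 0.36 (SD, n = 4), lay below the early mean of 5.26 ± 0.10 with no overlap of arrays, a difference of -1.04 ± 0.25 that did not pass (adjusted p = 0.0768); without very-late replicate 2 it did (adjusted p = 0.0458).

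IL10RB read 7.90, 9.07, 7.77 and 7.87 in the very-late glands and 6.42, 6.74, 6.63 and 6.58 in the late glands, where again no arrays overlap. It rose by 1.56 ± 0.24 against late (2.95-fold, adjusted p = 0.000142) and by 2.05 ± 0.24 against early (adjusted p = 4.72e-06). Very-late replicate 2 was far above the other 3 arrays of its stage. The values of the ligand depend on the probe set: the 2 probe sets of IL10 averaged 6.64 and 3.82 over the 20 arrays. Which transcript each reads was not tested, so neither is shown to be the course of IL10 mRNA. IL10 had means of 6.42 ± 0.49 (early), 7.27 ± 0.07 (mid), 6.80 ± 0.32 (mid-late), 6.21 ± 0.17 (late) and 6.50 ± 0.15 (very-late) on the brighter of its 2 probe sets, which differed between stages (adjusted p = 0.00265). Its 4 mid arrays, 7.24, 7.20, 7.37 and 7.25, were above all 4 early arrays, though the difference of 0.85 ± 0.19 did not pass (adjusted p = 0.0569). The other probe set was under background through the first 4 stages and reached 4.39 at the very-late stage, 0.66 above late (adjusted p = 0.000381).

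IL2RG, the gamma chain shared by the receptors of IL-2, IL-4, IL-7, IL-9, IL-15 and IL-21 and made by lymphocytes and myeloid cells, also rose at the very-late stage. It read 6.40, 8.28, 7.09 and 7.30 in the very-late glands, against 5.29, 5.83, 6.01 and 6.20 in the late and 4.99, 4.90, 5.08 and 4.90 in the early glands. The 3 sets of arrays did not overlap. It rose by 1.43 ± 0.26 against late (adjusted p = 0.000917) and by 2.30 ± 0.26 against early (4.93-fold, adjusted p = 4.61e-06). The late minus early difference of 0.87 ± 0.26 did not pass (adjusted p = 0.0528). Its second probe set moved alike, with very-late minus late at 1.46 (adjusted p = 0.0259).

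The private chains that pair with it had smaller differences. IL15RA, which presents IL-15 to neighbouring cells, was at 5.00 ± 0.43 in the very-late and 4.27 ± 0.11 in the early glands, a rise of 0.73 ± 0.16 (adjusted p = 0.00207); without very-late replicates 1 and 2 it was 0.39. IL4R, the receptor chain for IL-4 and IL-13, read 6.05, 5.62, 5.83 and 5.82 in the very-late and 5.48, 5.55, 5.72 and 5.29 in the late glands. Its rise of 0.32 ± 0.10 (adjusted p = 0.0332) was lost without late replicate 1, 2 or 4 or very-late replicate 1, 3 or 4 (adjusted p = 0.0551 to 0.126), and the arrays overlap. The call was also lost with median centring (adjusted p = 0.0594), a trended prior (adjusted p = 0.072) and the replicate block (adjusted p = 0.0575). The same held on the 8 arrays of the 2 stages (adjusted p = 0.149) and without very-late replicates 1 and 2 (adjusted p = 0.0806). IL2RA, the inducible chain of the high-affinity IL-2 receptor, was under background at every stage (3.74 to 4.22 over the 20 arrays). IL15 was under background too on the probe set used (3.12 to 4.35 over the 20 arrays), which passed no test. Its 2 dimmer probe sets, with every stage mean under background, passed the test over the stages (adjusted p = 0.0353 and 0.0243), and the dimmest was 0.34 higher at very-late than at late (adjusted p = 0.0199).

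**Figure D3:**
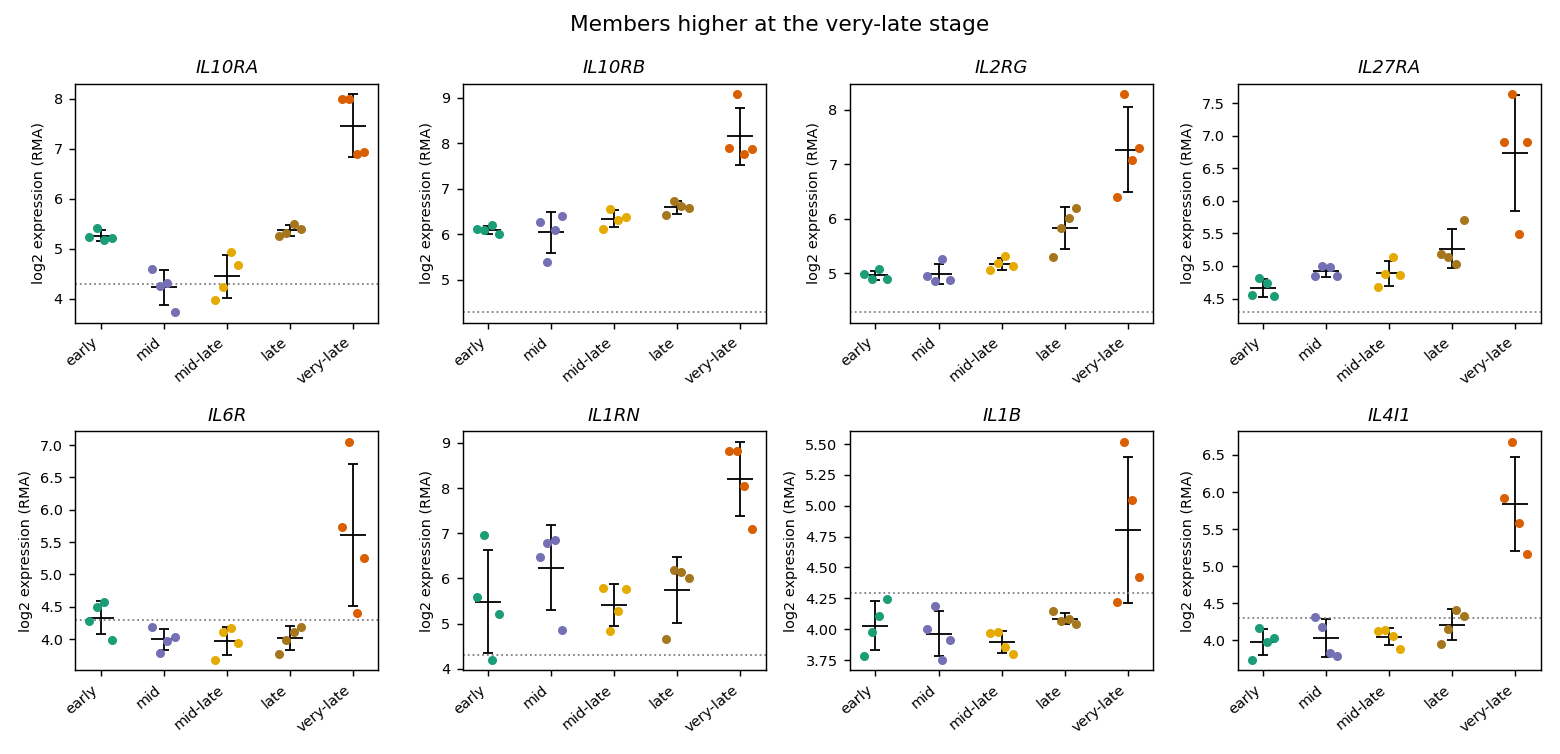
Log2 expression of 8 members by stage, with a point per array, the mean as a bar and the SD as error bars (n = 4); the dotted line is the background of 4.30. Very-late arrays lie above all late arrays in every panel but that of IL27RA, where very-late replicate 3 lies among the late arrays.

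The receptors of the IL-6 and IL-12 family split. IL6ST, the chain that carries the signals of IL-6, IL-11, LIF and oncostatin M, fell in the very-late glands. It read 5.16, 4.63, 5.58 and 5.54 there, against 8.11, 8.55, 8.08 and 7.91 in the late glands. The arrays of the first 4 stages span 7.38 to 8.93, and no very-late array came near that range. The difference from late was -2.94 ± 0.27 (7.66-fold lower, adjusted p = 6.58e-07), and against early the difference was -2.82 ± 0.27 (adjusted p = 5.93e-07).

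IL11RA, the private receptor chain of IL-11, a cytokine known for its part in decidua formation in mice, rose and then fell. It had means of 6.63 ± 0.90 (early), 8.64 ± 0.51 (mid), 9.11 ± 0.19 (mid-late), 9.48 ± 0.16 (late) and 6.39 ± 0.67 (very-late). The 4 late arrays read 9.39, 9.31, 9.57 and 9.66 and the 4 early arrays 6.70, 7.83, 6.28 and 5.71. It rose by 2.48 ± 0.37 at mid-late (adjusted p = 0.00191) and by 2.85 ± 0.37 at late (7.22-fold, adjusted p = 0.000157), both against early, with no overlap. The very-late arrays read 6.39, 5.61, 6.31 and 7.23, a difference of -3.09 ± 0.37 from late (adjusted p = 1.12e-05). Against early the very-late difference was -0.24 ± 0.37 and did not pass (adjusted p = 0.747).

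The rise of IL11RA at mid, 2.01 ± 0.37 (adjusted p = 0.0272), made it the 1 member called in that comparison. Leaving out mid replicate 2, 3 or 4, or early replicate 3 or 4, ended the call (adjusted p = 0.0509 to 0.0993), as did the 8 arrays of the 2 stages alone (adjusted p = 0.127) and the replicate number as a block (adjusted p = 0.0592). The second probe set of IL11RA was dimmer, with late minus early at 0.34 (adjusted p = 0.0873) and very-late minus late at -0.57 (adjusted p = 0.00183). On the mean of both probe sets the difference from early was 1.14 at mid, 1.43 at mid-late and 1.59 at late, and very-late minus late was -1.83.

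**Figure D4:**
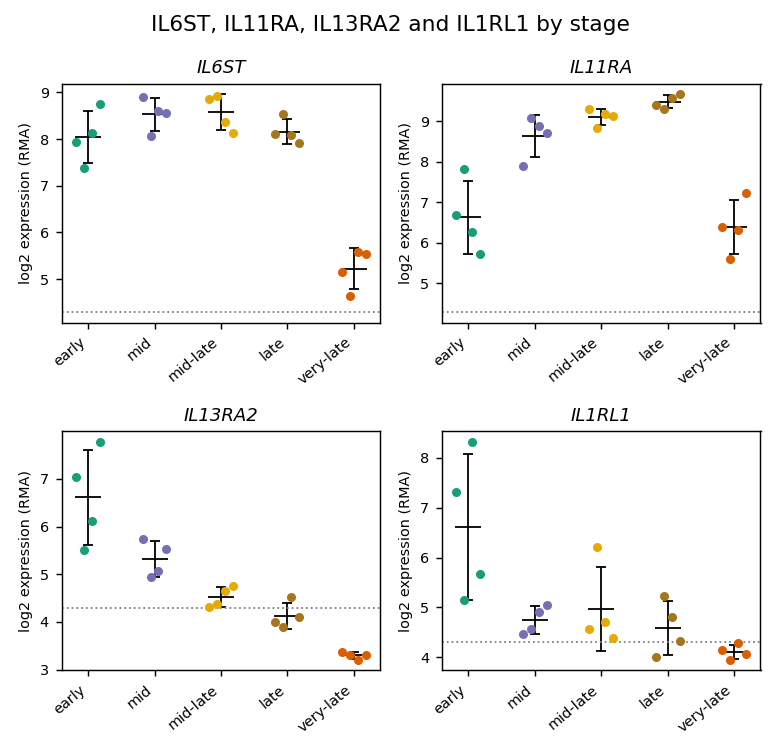
Log2 expression of IL6ST, IL11RA, IL13RA2 and IL1RL1 by stage, with a point per array, the mean as a bar and the SD as error bars (n = 4), and the background of 4.30 dotted. IL6ST drops at the very-late stage alone, IL11RA climbs to the late stage before it drops, and IL13RA2 and IL1RL1 are highest at the early stage.

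IL6R and IL27RA went the other way. IL6R, the chain that binds IL-6 and that cells can shed in soluble form, read 5.74, 7.04, 4.41 and 5.26 in the very-late glands and 3.77, 3.99, 4.11 and 4.19 in the late glands. It rose by 1.60 ± 0.34 (adjusted p = 0.00354), with very-late replicate 2 highest and replicate 3 only just above the late arrays. The first 4 stage means lay between 3.98 and 4.33, near background. Without very-late replicates 1 and 2 the rise was 0.82 (adjusted p = 0.0198), and on the 8 arrays of the 2 stages it did not pass (adjusted p = 0.0788). Against early it was 1.28 ± 0.34 (adjusted p = 0.0127), 0.80 without very-late replicate 2 and 0.50 without very-late replicates 1 and 2 (adjusted p = 0.134). On the 8 very-late and early arrays alone it did not pass either (adjusted p = 0.146).

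IL27RA, which pairs with IL6ST to bind IL-27, read 6.90, 7.63, 5.49 and 6.91 in the very-late and 5.18, 5.14, 5.03 and 5.71 in the late glands. It rose by 1.47 ± 0.29 (adjusted p = 0.00151), although very-late replicate 3 fell within the late range, and by 2.07 ± 0.29 against early (adjusted p = 3.63e-05). Without very-late replicates 1 and 2 the difference from late was 0.94 (adjusted p = 0.0344), on the mean of its 3 probe sets 0.81 (1.00 against early), and on the 8 arrays of the 2 stages it did not pass (adjusted p = 0.0595). IL12RB2, a chain of the IL-12 receptor, rose by 0.53 ± 0.12 against early (adjusted p = 0.00441), and its 3 other probe sets passed there too. IL6ST, the partner of IL6R and IL27RA, read lowest on very-late replicate 2 (4.63), the array on which both of them read highest.

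In the IL-1 family the antagonist rose at the very-late stage. IL1RN, the secreted antagonist that occupies the IL-1 receptor without signalling, read 8.82, 8.82, 8.05 and 7.10 in the very-late glands, against 4.66, 6.18, 6.13 and 6.01 in the late glands. Its arrays vary widely at every stage, and early arrays run from 4.20 to 6.96. It rose by 2.45 ± 0.55 against late (5.47-fold, adjusted p = 0.00478) and by 2.71 ± 0.55 against early (6.55-fold, adjusted p = 0.00149), with no overlap of very-late with late or early arrays. Without very-late replicates 1 and 2 the difference from late was 1.83 and did not pass (adjusted p = 0.104). All 3 of its probe sets passed in both comparisons, the others with 1.47 and 1.44 against late.

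IL1B, the main secreted agonist of the same receptor, read 4.22, 5.51, 5.05 and 4.42 in the very-late and 4.15, 4.06, 4.09 and 4.04 in the late glands. Very-late replicate 1 lay only just above the late arrays. The stage mean of 4.80 was the 1 stage mean of IL1B above background. It rose by 0.72 ± 0.19 (1.64-fold, adjusted p = 0.0173), a call lost without very-late replicate 3 (adjusted p = 0.0522) and on the 8 arrays of the 2 stages (adjusted p = 0.140). Of its 3 probe sets 2 passed against late. IL1R2, the decoy receptor that binds IL-1 and does not signal, was at 8.12 ± 0.92 in the very-late and 7.93 ± 0.51 in the late glands and did not pass (adjusted p = 0.837). One of its 4 probe sets, at 5.06 in the very-late and 6.47 in the late glands, differed by -1.41 (adjusted p = 0.000365), so the course of IL1R2 depends on the probe set. IL1RAP, the signalling partner chain, was under background (3.45 to 3.97 over the 20 arrays).

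IL1RL1, the receptor of the alarmin IL-33 and known from mast cells, type 2 lymphocytes and endothelium, had its highest mean at the early stage. It read 7.31, 5.14, 8.32 and 5.67 at the early stage, and the 16 later arrays lay between 3.95 and 6.22. It differed by -2.02 ± 0.52 at late (adjusted p = 0.0231) and by -2.50 ± 0.52 at very-late (adjusted p = 0.00195), both against early. The differences at mid (-1.87 ± 0.52, adjusted p = 0.135) and mid-late (-1.64 ± 0.52, adjusted p = 0.0984) did not pass, though without early replicate 2 both did (adjusted p = 0.0493 at mid), and mid-late did without early or mid-late replicate 2 (adjusted p = 0.0263 to 0.0408). Without early replicate 3 the mid-late difference was -1.07. The late call was lost without early replicate 1 or 3 or late replicate 1 or 4 (adjusted p = 0.0634 to 0.0800) and on the 8 arrays (adjusted p = 0.0936). The 3 other probe sets of IL1RL1 did not pass in any of these comparisons, and on the mean of all 4 the difference from early was -0.62 at late and -0.76 at very-late.

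IL33, its ligand, stayed under background by stage mean and passed no test. Its very-late arrays read 3.57, 6.17, 3.61 and 3.52, with replicate 2 alone well above background. IL18, a relative of IL-1 released by the inflammasome, ranged over 3.69 to 5.29 and did not pass the test over the stages (adjusted p = 0.681). IL36RN, the antagonist of IL-36, rose by 0.25 ± 0.08 against early (adjusted p = 0.0244) under background. The call was lost without early replicate 3 or very-late replicate 1 or 4 (adjusted p = 0.0832 to 0.0889) and with median centring (adjusted p = 0.0698). It was also lost without very-late replicates 1 and 2 together (adjusted p = 0.124) and on the 8 arrays (adjusted p = 0.134).

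The receptors of IL-13 differed in course. IL13RA2, which binds IL-13 with high affinity and is mostly described as a decoy, was lower at every later stage: it had means of 6.61 ± 1.00 (early), 5.32 ± 0.37 (mid), 4.52 ± 0.21 (mid-late), 4.13 ± 0.27 (late) and 3.30 ± 0.07 (very-late). The very-late arrays, 3.38, 3.30, 3.21 and 3.31, were under background, while the early arrays read 7.05, 5.51, 6.11 and 7.77. The differences from early were -2.08 ± 0.33 at mid-late (adjusted p = 0.00269), -2.48 ± 0.33 at late (adjusted p = 0.000192) and -3.31 ± 0.33 at very-late (adjusted p = 8.70e-07), with no overlap in any of them. At mid it was -1.29 ± 0.33 and did not pass (adjusted p = 0.0951), except without early replicate 2 (adjusted p = 0.0157). IL13RA1, the chain that signals with IL4R, was at 8.05 ± 0.40 in the very-late and 7.66 ± 0.18 in the late glands (adjusted p = 0.296) and passed the test over the stages on none of its 3 probe sets.

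Of the 12 IL-17 family members 1 differed across the 5 stages on the probe set used. A second probe set of IL17RC, a partner chain of IL17RA, passed as well (adjusted p = 0.0243). It was at 4.81 in the very-late and 5.20 in the late glands (-0.39, adjusted p = 0.00807). The one used passed neither across the stages (adjusted p = 0.353) nor against late (adjusted p = 0.216). IL17RA, the chain common to IL-17 receptors, read 6.41, 6.75, 6.20 and 6.35 in the very-late and 5.97, 5.72, 5.70 and 5.61 in the late glands. It rose by 0.68 ± 0.12 (1.60-fold, adjusted p = 0.000481) with no overlap. Against early its difference of 0.35 ± 0.12 passed narrowly (adjusted p = 0.0452) and was lost in 11 of the 20 fits that left out 1 array (adjusted p = 0.0504 to 0.159): those without early replicate 1, 2 or 3, mid replicate 1 or 3, mid-late replicate 3, late replicate 2 or 3, or very-late replicate 1, 2 or 4. Without very-late replicates 1 and 2 it was 0.19 and did not pass (adjusted p = 0.378). The call was also lost with cyclic loess scaling (adjusted p = 0.0576), median centring (adjusted p = 0.0903) and a trended prior (adjusted p = 0.0742). The same held with the replicate block (adjusted p = 0.0727) and on the 8 arrays of the 2 stages (adjusted p = 0.111). IL17RD, a chain that also restrains FGF signals, rose by 0.22 ± 0.06 at late against early (adjusted p = 0.0380) under background, and this was lost without any 1 early array, or late replicate 1, 2 or 3 (adjusted p = 0.0538 to 0.119). The IL17RD call was also lost with the replicate block (adjusted p = 0.0595), on the 8 arrays (adjusted p = 0.0813) and with a term for the mitochondrial split of the arrays (adjusted p = 0.0606). None of the 6 IL-17 ligands passed a test.

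Other members that passed have roles outside these families. IL4I1, an enzyme that oxidises amino acids and is secreted by myeloid cells, read 5.92, 6.67, 5.58 and 5.17 in the very-late and 3.95, 4.15, 4.41 and 4.33 in the late glands. Its arrays did not overlap between these stages, and the first 4 stage means were all under background. It rose by 1.62 ± 0.22 against late (3.08-fold, adjusted p = 4.71e-05) and by 1.86 ± 0.22 against early (adjusted p = 6.69e-06).

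IL34, the second ligand of the macrophage receptor CSF1R, rose by 0.48 ± 0.15 against late (adjusted p = 0.0323) and by 0.54 ± 0.15 against early (adjusted p = 0.0117). The first call was lost without late replicate 2, 3 or 4 or very-late replicate 2 or 3 (adjusted p = 0.0684 to 0.116), and both were lost without very-late replicates 1 and 2 (adjusted p = 0.145 against late and adjusted p = 0.0547 against early). Both were also lost on the 8 arrays of each comparison alone (adjusted p = 0.127 against late and adjusted p = 0.106 against early). IL16, a chemoattractant of CD4 cells, rose by 0.36 ± 0.12 against early (adjusted p = 0.0483), with overlap. It lost the call in 14 of the 20 fits that left out 1 array (adjusted p = 0.0509 to 0.145), all but those without early replicate 1, mid replicate 4, mid-late replicate 1 or 4, late replicate 2 or very-late replicate 1. The IL16 call was also lost with cyclic loess scaling (adjusted p = 0.0663), median centring (adjusted p = 0.0689), a trended prior (adjusted p = 0.0635) and on the 8 arrays (adjusted p = 0.0985). IL5, the eosinophil cytokine, was at 3.14 ± 0.08 in the very-late and 3.39 ± 0.06 in the late glands; its difference of -0.25 ± 0.06 passed (adjusted p = 0.00994) with every stage mean under background, and did not pass on the 8 arrays alone (adjusted p = 0.0533).

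IL2, the T cell growth factor, gave values that turn on the probe set. The brightest of its 3 probe sets had means of 10.11 ± 0.42 (early), 10.95 ± 0.40 (mid), 11.13 ± 0.28 (mid-late), 11.32 ± 0.03 (late) and 10.04 ± 0.31 (very-late). It rose at mid-late (1.02 ± 0.21, adjusted p = 0.0117) and late (1.22 ± 0.21, adjusted p = 0.00164) against early, and differed by -1.28 ± 0.21 at very-late against late (adjusted p = 0.000324). A second probe set followed this course at stage means of 8.89 to 10.52. The third stayed at 2.97 to 3.07, under background (adjusted p = 0.821 over the 5 stages). Which transcript the first pair reads was not tested, so these values are those of the probe sets and not shown to be IL2 mRNA. Of the 72 members 30 have several probe sets, and in 5 of them the means over the 20 arrays lie more than 2 log2 units apart.

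**Figure D5:**
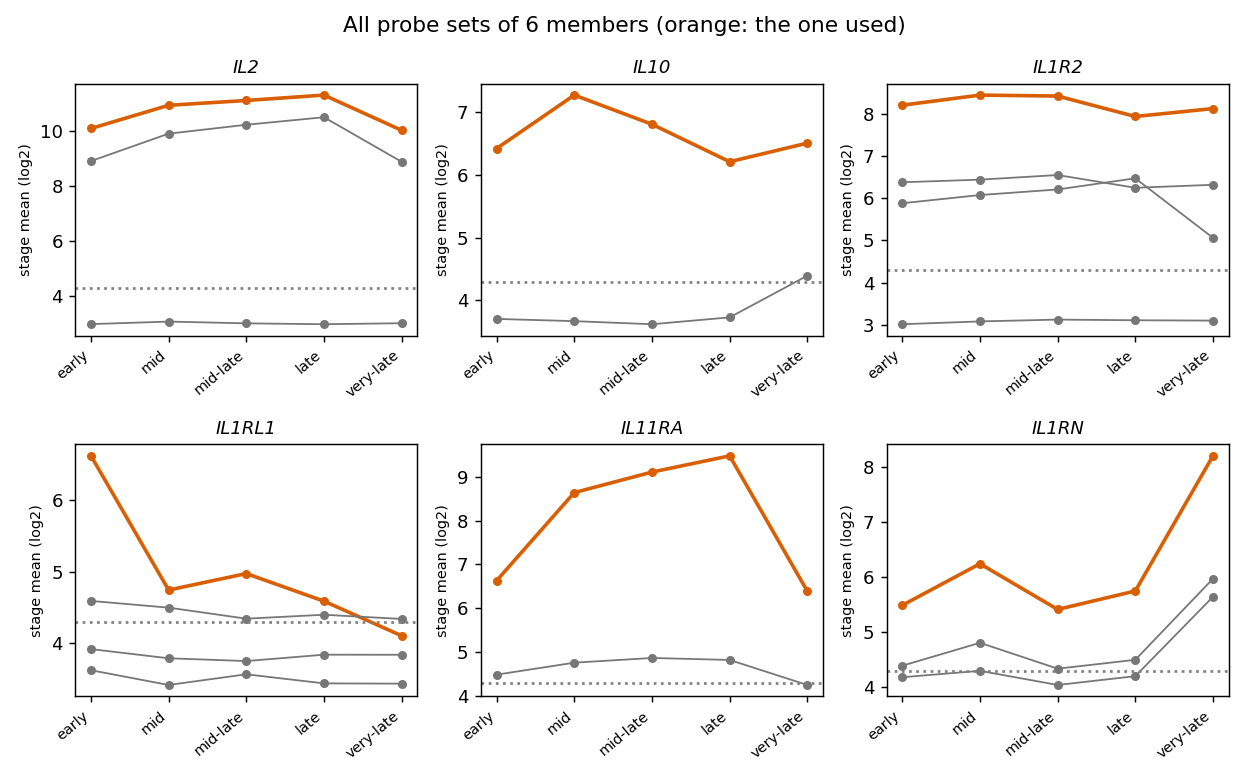
Stage means (log2 expression) of every probe set of 6 members, with the one used in orange, the others in grey and the background of 4.30 dotted. All probe sets of IL1RN are highest and those of IL11RA lowest at the very-late stage, while those of IL2, IL10, IL1R2 and IL1RL1 differ in level and course.

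The very-late arrays were unequal. Of the 11 members that rose against late, 9 read highest on very-late replicate 2 and 2 (IL1RN and IL4R) on replicate 1. Without very-late replicates 1 and 2, 12 members were called against late, all of them among the 15, and 13 against early, all of them among the 17. Against early on the 8 arrays of the 2 stages alone, 11 were called.

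Marker genes of several cell types, though not of all, also differed between the very-late and late glands. Of all probe sets, 6.75% rose and 7.03% fell in that comparison. Of the 14 measured macrophage markers 8 rose and 0 fell against late, with a median difference of 1.45. Their mean per array was 8.39 to 8.85 in the very-late glands and 7.03 to 7.50 in the late glands. Their summed linear signal was 11920 to 18130 in the very-late and 3425 to 6179 in the late glands. CYBB, the oxidase subunit of phagocytes, rose by 3.54 ± 0.33 (adjusted p = 6.75e-07), CD68 by 2.70 ± 0.27 (adjusted p = 1.84e-06) and TYROBP, an adaptor of myeloid receptors, by 2.76 ± 0.31 (adjusted p = 5.85e-06). The macrophage markers did not all move alike. C1QA averaged 8.55 in the very-late and 9.77 in the late glands and did not pass (adjusted p = 0.0942). C1QB (9.19 at both stages) and MRC1 (7.77 in the very-late and 7.73 in the late glands) did not pass either, and ITGAM was under background. Very-late replicate 2 had the highest macrophage mean, 8.85, beside 8.39, 8.42 and 8.57 on replicates 1, 3 and 4. It also had the highest neutrophil mean (4.43) and NK cell mean (8.00) of its stage. The highest T cell mean of the stage lay on replicate 1 (4.82), and the highest B cell and mast cell means on replicate 3 (4.08 and 4.39). Of the 6 luteal cell markers 5 fell and 0 rose, with a mean per array of 7.04 to 8.52 in the very-late and 10.2 to 11.0 in the late glands. Their summed signal was 2472 to 5444 in the very-late and 20160 to 24810 in the late glands. CYP19A1, the aromatase that makes oestrogen, differed by -5.02 ± 0.47 (adjusted p = 7.04e-07) and STAR, which brings cholesterol into the mitochondrion, by -4.22 ± 0.38 (adjusted p = 4.33e-07).

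Of the 6 T cell markers 4 rose against late, TRAT1 among them under background. CD5 and CD28 did not pass, and CD28 was under background too. The mean of the 6 per array was 4.50 to 4.82 in the very-late and 4.28 to 4.39 in the late glands. Their summed signal was 164 to 222 in the very-late and 138 to 152 in the late glands. CD8B, a chain of the cytotoxic T cell coreceptor, averaged 4.89 in the very-late and 3.87 in the late glands. Of 5 NK cell markers 2 rose (NKG7 and NCAM1) and 1 fell against late, with a mean per array of 7.16 to 8.00 in the very-late and 7.32 to 7.88 in the late glands. Their summed signal was 1092 to 2549 in the very-late and 4034 to 4884 in the late glands. The one that fell was GZMB, a protease of cytotoxic granules (-2.26 ± 0.37, adjusted p = 0.000304). GZMB was the brightest NK cell marker, at 11.96 in the late and 9.69 in the very-late glands, so it weighs most in the sum. The other NK cell markers all had a higher mean in the very-late than in the late glands, though not all passed. B cell markers (0 of 4 called) lay at 3.83 to 4.08 in the very-late and 3.82 to 3.99 in the late glands, with CD79A, MS4A1 and BLK under background. Of 7 neutrophil markers 0 were called against late, with S100A9, S100A12, ELANE and FPR1 under background. Their mean per array was 3.88 to 4.43 in the very-late and 3.80 to 4.09 in the late glands. Of 5 mast cell markers 1 rose (FCER1A, under background), with CPA3, MS4A2 and HDC under background too. Of 6 fibroblast and pericyte markers 3 fell and 0 rose (median -0.89), with a mean per array of 8.59 to 9.06 in the very-late and 9.36 to 9.73 in the late glands and a summed signal of 6117 to 9608 in the very-late and 12330 to 16200 in the late glands. COL1A1, a collagen chain, differed by -1.51 ± 0.24 (adjusted p = 0.000234). Of 10 endothelial markers 1 rose (CLEC14A) and 2 fell (KDR and EMCN), with a mean per array of 7.08 to 8.12 in the very-late and 7.78 to 7.91 in the late glands and a summed signal of 2395 to 5107 in the very-late and 3771 to 4376 in the late glands. EMCN, a sialomucin of vessels, differed by -1.09 ± 0.23 (adjusted p = 0.00322). The part of all these markers in the interleukin results, the falls of IL6ST and IL11RA among them, was not tested.

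Relatives of the interleukins outside the naming rule, and the genes that carry their signals, were counted from fixed lists. No list was tested as a set. Of 18 measured relatives, 3 rose and 2 fell at very-late against late (median 0.02), and 2 fell and 0 rose at mid-late against early (median -0.03). Of all probe sets, 6.75% rose and 7.03% fell in the first of these comparisons, and 1.62% rose and 2.1% fell in the second. OSMR, the oncostatin M receptor chain that pairs with IL6ST, averaged 9.31 at the late and 10.63 at the early stage, a difference of -1.32 ± 0.19 (adjusted p = 0.000373). LIF, a ligand that also signals through IL6ST, differed by -1.85 ± 0.39 in the same comparison (adjusted p = 0.00686). At late against early 2 of the relatives rose (EBI3 and EPOR) and 2 fell, where 3.61% of all probe sets rose and 3.97% fell. CSF2RB, the beta chain shared by the receptors of IL-3, IL-5 and GM-CSF, rose by 1.81 ± 0.37 at very-late against late (adjusted p = 0.00220).

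Of 19 JAK, STAT and SOCS genes 2 rose and 1 fell at very-late against late (median 0.06) and 6 rose and 1 fell against early. Of all probe sets, 6.75% rose and 7.03% fell against late, and 9.45% rose and 9.21% fell against early. PTPN6, a phosphatase of blood cells that damps JAK signals, rose by 2.03 ± 0.33 against late (adjusted p = 0.000260), and STAT6, the factor of IL-4 and IL-13 signals, by 1.02 ± 0.20 against early (adjusted p = 0.00138). Of 17 IL-1 receptor adaptors and NF-kB genes 4 rose and 0 fell against late (median 0.28), among them NFKBIE, an inhibitor of NF-kB (1.22 ± 0.21, adjusted p = 0.000556), and REL, an NF-kB subunit (1.18 ± 0.30, adjusted p = 0.0129). Of 9 genes of the inflammasome, which matures IL-1 and IL-18, 4 rose and 1 fell (median 0.12). PYCARD, the adaptor of the complex, rose by 3.09 ± 0.27 (adjusted p = 3.08e-07), while AIM2, a DNA sensor, differed by -1.61 ± 0.37 (adjusted p = 0.00588).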

How the data were processed

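RNA of 20 rhesus corpora lutea was read on Affymetrix rhesus arrays after extraction with Trizol and RNeasy and 1 cycle of biotin labelling, per the labels' protocols. The deposited values are RMA values on a log2 scale, per the submitters' processing notes and the range of the values (2.48 to 14.28). Which RMA version and chip definition were used, and whether values were filtered, is not given in the sources used here. They were used as deposited. No probe or genome sequence was used.

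Tests ran on 52707 of the 52865 probe sets, dim ones included; the 158 not tested are array controls. In the platform's annotation 24956 of those tested carry 1 symbol, 361 several and 27390 none. In R 4.3.3, limma 3.58.1 fitted a mean per stage to all 20 arrays (15 residual and 2.75 prior degrees of freedom). It tested any difference between stages and 5 comparisons, two-sided, with Benjamini-Hochberg adjustment over the 52707 probe sets in each. An adjusted p under 0.05 is a call, and errors of differences are standard errors of this fit. The labels call the samples biological replicates. Replicate numbers 1 to 4 recur in each stage, but same-numbered arrays deviated together in only 6 of 40 pairs (r over 0.1), so they were not taken as pairs.

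The members, lists and tests were chosen with earlier results of these data known. Members called with at least a 2-fold change, and a fixed set of well-known ones, are given by array, stage mean, range or difference. List genes with a change are given at most 4 per list and not always in order of size. Those given with a change passed the test in that comparison with at least a 2-fold change. Smaller calls, markers under background and markers that did not pass are named without one, and were picked after their values were seen. Alternatives changed the scaling, filter, prior, probe set choice, block and arrays used. The procedure was tested on simulated data.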

Additional observations from a re-analysis of the deposited data

Results flagged for a closer look

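In each stage of 4 arrays, the highest or lowest array was set against the other 3 by Dixon's test, over 31 members and 155 groups of 4. It marked 10, where chance marks about 1 in 20 groups. Very-late replicate 2 read 9.07 for IL10RB, above 7.77 to 7.90 on the other 3 arrays of its stage, and 6.17 for IL33, above 3.52 to 3.61. Late replicate 1 read low for IL1RN (4.66, the others 6.01 to 6.18), for IL1R2 (7.18, the others 8.08 to 8.24) and for IL18 (3.71, the others 4.30 to 4.37). Early replicate 2 read high for IL18 (5.29, the others 3.69 to 3.93) and low for IL17RD (3.12, the others 3.25 to 3.26). Early replicate 4 read high for IL1A (4.37, the others 3.38 to 3.44), late replicate 2 high for IL16 (5.58, the others 5.21 to 5.27) and mid-late replicate 4 low for IL36RN (3.10, the others 3.29 to 3.32).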

How the results depend on the processing

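Of the 41 calls of a member in a comparison, 25 held under every alternative, 16 were lost under at least 1, and none changed sign. In mid against early the 1 call became 3 without dim probe sets, 3 without very-late replicates 1 and 2, 0 with the replicate block and 0 on the 8 arrays. In very-late against early the 17 became 11 on the 8 arrays. For any difference between stages the 19 became 16 without very-late replicates 1 and 2, where IL12RB2, IL1RN and IL34 lost the call (adjusted p = 0.0557 to 0.128). IL1RL1 lost that call without early replicate 1 (adjusted p = 0.0591) and IL5 without very-late replicate 3 (adjusted p = 0.0662). Leaving out 1 array gave 19 to 22 members for any difference between stages, 0 to 4 for mid, 3 to 4 for mid-late, 3 to 7 for late and 14 to 17 for very-late against early, and 13 to 16 for very-late against late. The 3 for late came without early replicate 1 or 3. For mid it was 0 without mid replicate 2, 3 or 4 or early replicate 3 or 4, 3 without early replicate 1 or very-late replicate 2, 4 without early replicate 2 and 2 without mid-late replicate 2. The replicate block left the other counts within 1.5 times. Same-numbered arrays' deviations correlated at -0.208 to 0.214, and 3 of 20 arrays correlated best with their own number. Cyclic loess, median centring, the trended prior, averaging the probe sets of a gene and the term for the mitochondrial split kept all 6 counts within 1.5 times. The causes of the other shifts were not tested. Without dim probe sets 37 of the 72 members are left. Signal near background limits most ligands.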
